A study of Mus musculus with 6 samples.

Results

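The genes described here code for the secreted WNT ligands, their receptors, the secreted proteins that hold the ligands or receptors back, and the proteins that carry or limit the signal. They were chosen by symbol from the platform annotation: symbols that begin with Wnt, Fzd, Sfrp or Dkk and a digit, plus Frzb, Wif1, Lrp5, Lrp6, Axin2, Lef1, Rspo1, Rspo2, Rspo3, Lgr4, Lgr5, Znrf3, Rnf43 and Ctnnb1. The choice gave 55 of the 37932 probes on the arrays and 52 of the 21874 genes named there, of which 49 had 1 probe and 3 (Wnt4, Lef1 and Lgr5) had 2. They comprise all 19 Wnt and all 10 Fzd genes that the annotation lists, and Fzd10os, an RNA gene on the opposite strand of Fzd10 that entered through its symbol. Tcf7 belongs to the same rule, and no probe is listed for it here.

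WNT proteins are secreted with an attached lipid, bind Frizzled receptors together with the co-receptors LRP5 or LRP6, and so stop the breakdown of beta-catenin, which then acts with TCF and LEF proteins in the nucleus. SFRP proteins and WIF1 bind the ligands, and most DKK proteins bind the co-receptors. R-spondins with their LGR receptors keep ZNRF3 and RNF43 from removing Frizzled from the cell surface. In the ovary Wnt4 and Rspo1 are known for their part in female gonad development.

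The RNA came from ovarian tumours of 0.5 to 1 cm. RU486 (mifepristone), a steroid that blocks the progesterone and glucocorticoid receptors, was given as a slow-release pellet to 1 group of mice, and the other group had a placebo pellet, each for 24 h. Both groups carry the same alleles, spelled Pgrcre/+mPgrLsL/+ on the samples and Pgrcre/+PgrBLsL/+ in the series text. By that name Cre is driven from the progesterone receptor locus Pgr, so it acts in cells that use this gene, and neither group is wild type. There were 3 RU486 and 3 placebo arrays, with 1 dye (Cy3). The labels give no age and do not say that each array holds another mouse, so the p-values measure the spread between these samples, which may be technical. The tumour pieces are mixtures of cells, and fewer cells of a type cannot be told apart from less RNA per cell.

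The deposited values are scores. The 6 values of any probe average 0 with an SD of 1, so a score says on which arrays that probe was brighter and not how bright it was. Levels of different genes, fold changes, presence of a cell type and signal over background cannot be read from them. Differences are RU486 means less placebo means, in units of the SD of that probe, and 1.83 is the largest size they can take. Groups are called apart where every RU486 score lies on one side of every placebo score. Median scores over all probes ran from -0.363 to -0.0875 on RU486 arrays and from -0.384 to 0.212 on placebo arrays.

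The WNT genes showed no common direction with RU486. Receptor genes had mostly negative differences, with Fzd1, Fzd6 and Lrp5 apart from placebo on every array, though median receptor scores overlapped between groups. The antagonist Dkk4 and 1 of the Lgr5 probes were apart in the higher direction. No member passed limma's ordinary test after Benjamini-Hochberg adjustment over all probes (0 of 55 at an adjusted p of 0.05, smallest adjusted p = 0.272), where 2 of 37932 probes passed (0.00527%). At an unadjusted p of 0.05, 4 member probes were lower (7.27%, against 6.39% of all probes) and 2 were higher (3.64%, against 5.32%). In either direction that was 6 of 55, or 10.9%, against 11.7% of all probes. The groups were apart in 13 of the 55 probes (23.6%), against 22.1% of all probes. Of these, 9 were lower (16.4%, against 10.0% of all probes) and 4 were higher (7.27%, against 12.0%). Lower probes made up 69.2% of the separated members, against 45.5% of all separated probes. Among probes with a gene name, as all members have, the share was 49.7% (10.9% apart and lower, 11.1% apart and higher). With median-centred arrays this was 87.5% of members, against 61.8% of all, and with quantile normalization 88.9%, against 64.8%. The count of separated higher members was 1 in both settings, while the lower count was 7 with centring and 8 with quantile normalization. Centring moved the median difference of all probes to 0.12, against -0.01 without centring. The median difference of the members was 0.08, with 27 negative and 28 positive differences.

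**Figure D1:**
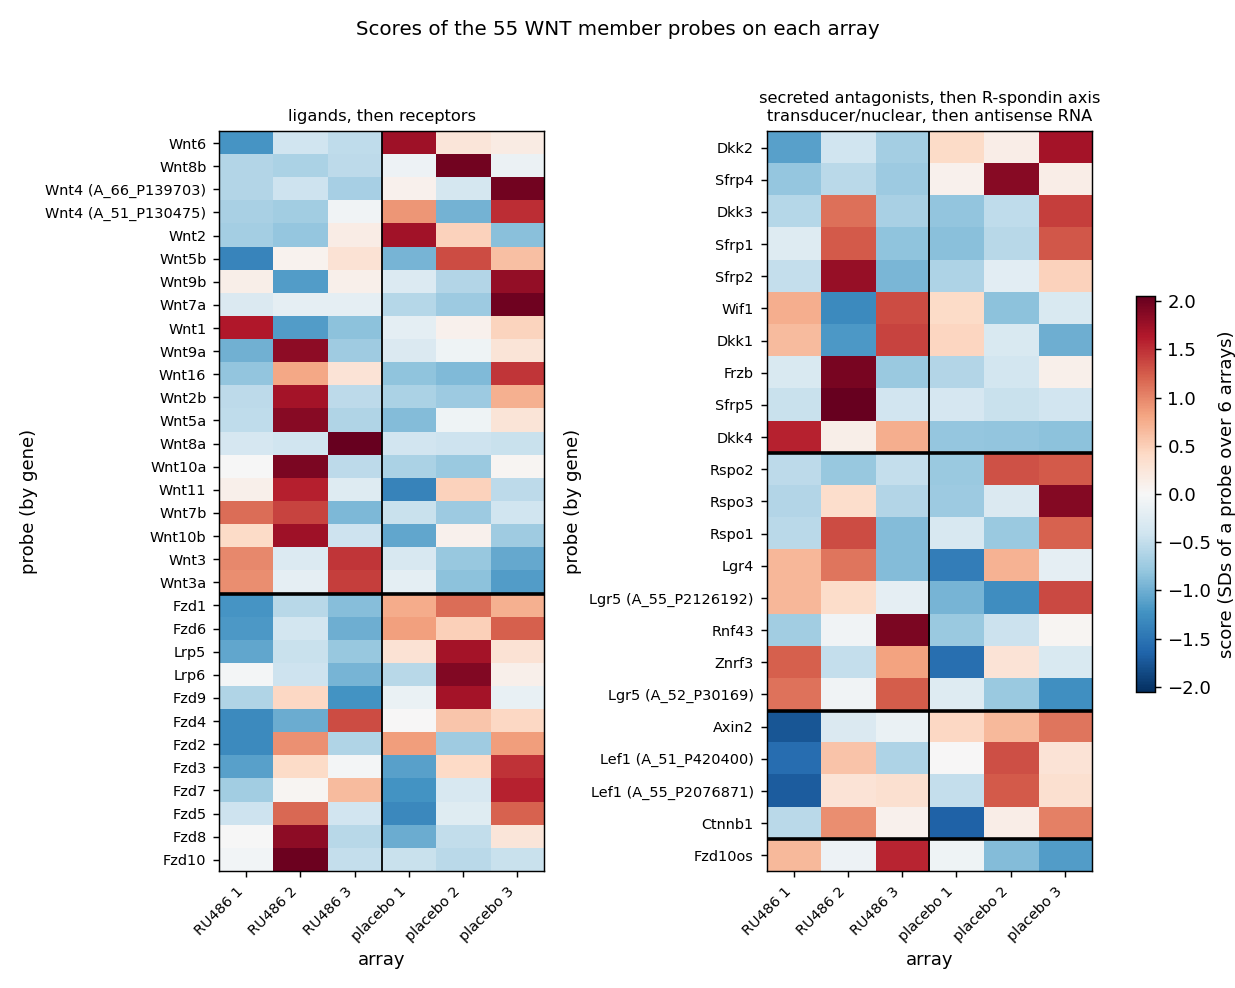
Scores of all 55 member probes (rows, by gene and role, sorted by difference within a role) on the 3 RU486 arrays, at the left of each panel, and the 3 placebo arrays. Colour gives the score. Fzd1 and Fzd6 are below 0 on every RU486 array and above 0 on every placebo array, while Sfrp5, Fzd10 and Frzb stand out on RU486 array 2 alone.

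The promoters of 3 members with lower scores are shown, picked after their values were seen from the 8 members with groups apart that have a RefSeq (GRCm38.p6) promoter: the receptor gene Fzd1, the antagonist gene Dkk2 and Axin2, a gene that the pathway itself is known to induce. Each run holds the 250 bases before the listed start site, 5′ to 3′, and capitals mark a hexamer AGAACA or its reverse complement TGTTCT, the half-site shared by progesterone and glucocorticoid receptors.
Fzd1, chr5:4758217-4758466, minus strand: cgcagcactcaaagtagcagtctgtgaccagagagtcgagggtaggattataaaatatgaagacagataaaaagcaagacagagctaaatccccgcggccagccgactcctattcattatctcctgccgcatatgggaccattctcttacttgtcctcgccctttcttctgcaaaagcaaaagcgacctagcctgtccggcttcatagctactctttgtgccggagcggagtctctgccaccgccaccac
Dkk2, chr3:132085042-132085291, plus strand: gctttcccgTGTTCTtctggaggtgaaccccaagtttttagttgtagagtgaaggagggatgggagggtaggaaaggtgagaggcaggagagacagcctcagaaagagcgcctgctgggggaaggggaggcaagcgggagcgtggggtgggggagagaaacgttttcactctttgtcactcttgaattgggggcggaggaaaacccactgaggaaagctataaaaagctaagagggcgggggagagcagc
Axin2, chr11:108920099-108920348, plus strand: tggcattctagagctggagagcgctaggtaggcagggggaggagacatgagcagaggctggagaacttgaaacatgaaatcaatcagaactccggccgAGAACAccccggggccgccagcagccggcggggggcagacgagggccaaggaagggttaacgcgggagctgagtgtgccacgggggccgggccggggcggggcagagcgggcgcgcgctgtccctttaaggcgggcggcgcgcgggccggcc

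The Fzd1 run had a GC content of 51.2% and no match. The Dkk2 run, at 55.6% GC, had 1 match whose first base lies 241 bases before the start. The Axin2 run, at 69.2% GC, had 1 match that begins 152 bases before the start. On both strands the hexamer was found in 7 of the 41 promoters listed for 33 member genes (17.1%), against 16.1% of all 32851 promoters. Of the 8 promoters of members with groups apart in either direction, 3 held it (37.5%): those of Axin2 and Dkk2, printed here, and of Wnt8b. These 8 were picked by the same scores and are few, and their share was not tested against that of all promoters. The 7-letter TCF/LEF cores CTTTGAT and CTTTGTT, searched with their reverse complements ATCAAAG and AACAAAG, were in 4 of the 41 (9.76%, in Dkk1, Fzd7, Wnt11 and Wnt5b), against 8.06% of all promoters, and in none of the 3 runs printed. A match is a run of letters and not a shown binding site.

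Receptor genes were lower more often than higher, with 9 of 12 differences negative and a median of -0.66, against -0.01 over all probes. Fzd1, a Frizzled receptor of WNT ligands, had the smallest p of any member. Its scores were -1.21, -0.569 and -0.875 on RU486 arrays 1 to 3, against 0.768, 1.15 and 0.73 on placebo arrays 1 to 3. The groups stood apart with a gap wider than either group's range, at a difference of -1.77 (SE 0.229; limma adjusted p = 0.272; unadjusted p = 0.00151). Fzd6, a Frizzled best known for planar polarity of hair and skin, had -1.18, -0.379 and -0.997 on RU486 arrays, against 0.843, 0.484 and 1.23 on placebo arrays. Its difference was -1.71 (SE 0.325, limma adjusted p = 0.327, unadjusted p = 0.00629), again with groups apart.

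The co-receptor gene Lrp5 scored -1.06, -0.45 and -0.777 on RU486 arrays, against 0.299, 1.7 and 0.297 on placebo arrays. All RU486 scores were below the placebo scores, and placebo array 2 was far above the rest. The difference was -1.53 (SE 0.499, limma adjusted p = 0.396, unadjusted p = 0.0376). Its close relative Lrp6 shared that high array: it had -0.0434, -0.421 and -0.96 on RU486 arrays, against -0.566, 1.89 and 0.1 on placebo arrays. Here the groups overlapped, and the difference was -0.95 (SE 0.78, limma adjusted p = 0.692). The other receptor genes overlapped between groups. Fzd9 stood at -0.94, Fzd2 and Fzd4 at -0.66 each, Fzd3 at -0.52, Fzd7 at -0.01, Fzd5 at 0.25, Fzd8 at 0.84 and Fzd10 at 0.98. Fzd4, the receptor for norrin in retinal vessels, had its highest score (1.33) on RU486 array 3 and its lowest (-1.31) on RU486 array 1.

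Marker lists of other cell states were read on the same arrays. All 8 probes of the proliferation marker list (Mki67, Top2a, Cdk1, Ccna2, Bub1, Nusap1, Plk1 and Aurka) were apart and lower with RU486, with list means from -1.08 to -0.619 on RU486 arrays and from 0.545 to 1.39 on placebo arrays. Over all probes 10.0% were apart and lower. Of 7 smooth muscle marker probes 2 were apart and lower, Myh11 at -1.78 and 1 Smtn probe at -1.62. The other Smtn probe (-1.3) and those of Acta2, Cnn1, Des and Tagln (from -0.43 to -0.21) overlapped between groups. The smooth muscle list means overlapped as well, from -0.676 to 0.0604 on RU486 arrays and from -0.302 to 1.65 on placebo arrays. Of 8 endothelial probes 2 were apart and lower, both of Vwf (von Willebrand factor, -1.39 and -1.61), and the list had a median of -1.23, with means from -1.08 to 0.159 on RU486 arrays and from 0.00954 to 0.859 on placebo arrays. Of the other lists read, granulosa markers had 1 of 7 probes apart and lower, that of Fst, with a list median of 0.14. Steroidogenic and luteal markers had 0 of 5 probes apart and a median of 0.64. Epithelial, stromal fibroblast and leukocyte markers had 0 probes apart, with medians of -0.58, -0.1 and -0.48. The part of these cell types and of proliferation in the receptor scores was not tested.

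**Figure D2:**
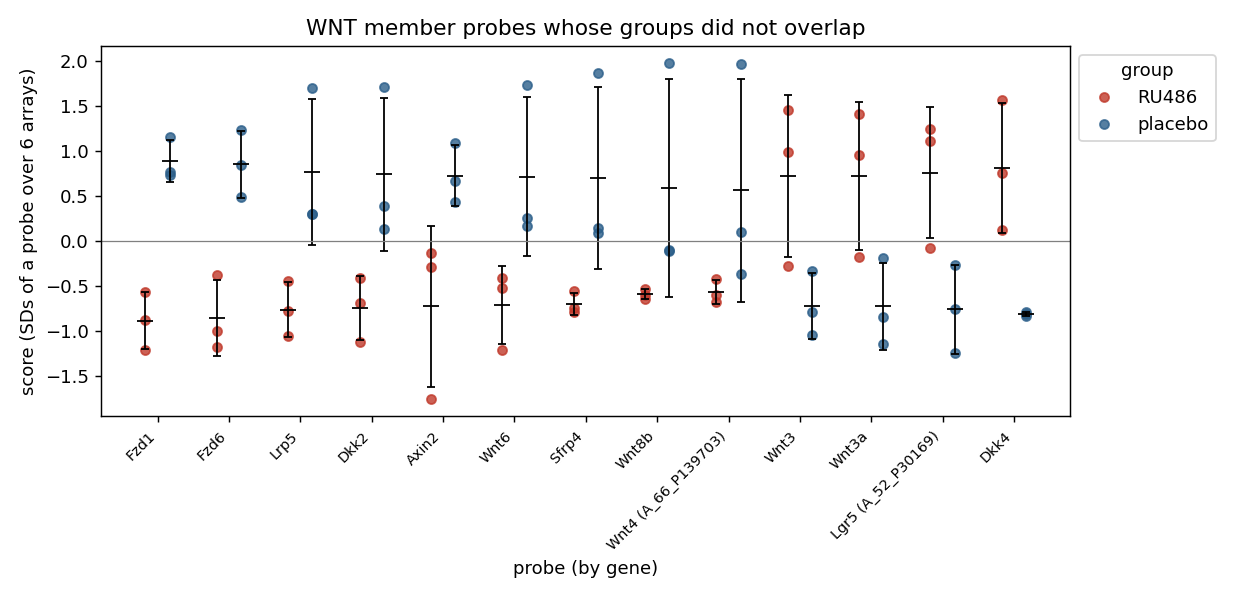
Scores (y axis, in units of the SD of each probe) of the 13 member probes whose groups were apart, with RU486 arrays in red left of placebo arrays in blue. Dots are arrays, dashes are group means and bars are 1 SD (n = 3). Fzd1 and Fzd6 have 3 placebo arrays above 0.4, whereas in Lrp5, Dkk2, Wnt6, Sfrp4, Wnt8b and Wnt4 a single placebo array lies above 1.6.

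The secreted antagonists split, with 3 of 10 differences negative and a median of 0.38. Dkk2, a ligand of the LRP co-receptors that inhibits or weakly activates the pathway depending on the context, scored -1.12, -0.412 and -0.69 on RU486 arrays, against 0.385, 0.129 and 1.71 on placebo arrays. Its groups were apart and it was lower, at -1.48 (SE 0.532, limma adjusted p = 0.396, unadjusted p = 0.0495). With eBayes the unadjusted p = 0.0545. Dkk4, which binds the same co-receptors and inhibits them, was the reverse. It had 1.57, 0.117 and 0.751 on RU486 arrays, against -0.786, -0.814 and -0.833 on placebo arrays, which were nearly level. The difference was 1.62 (SE 0.419, limma adjusted p = 0.396, unadjusted p = 0.018), and the groups stayed apart after median centring and after quantile normalization of the arrays.

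Sfrp4, a Frizzled-related protein gene expressed in ovary and uterus, had -0.788, -0.558 and -0.747 on RU486 arrays, against 0.088, 1.87 and 0.139 on placebo arrays. The groups were apart at -1.40 (SE 0.589, limma adjusted p = 0.413). Without placebo array 2, its highest, the difference was -0.81. Dkk1, the founding LRP antagonist, scored 0.646, -1.17 and 1.39 on RU486 arrays, against 0.441, -0.31 and -0.994 on placebo arrays. Wif1, which binds WNT proteins directly, scored 0.738, -1.3 and 1.34 on RU486 arrays, against 0.391, -0.847 and -0.315 on placebo arrays. In both genes RU486 array 2 was the lowest and RU486 array 3 the highest of all arrays, and the groups overlapped (differences of 0.57 and 0.51). Sfrp1 stood at 0.11, Sfrp2 at 0.25, Sfrp5 at 0.79 and Dkk3 at -0.07, all with overlapping groups.

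Frzb, another Frizzled-related antagonist gene, had -0.306, 1.95 and -0.759 on RU486 arrays, against -0.607, -0.38 and 0.1 on placebo arrays. Its difference of 0.59 (SE 0.864, limma adjusted p = 0.802) rested on RU486 array 2 and was -0.24 without it.

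**Figure D3:**
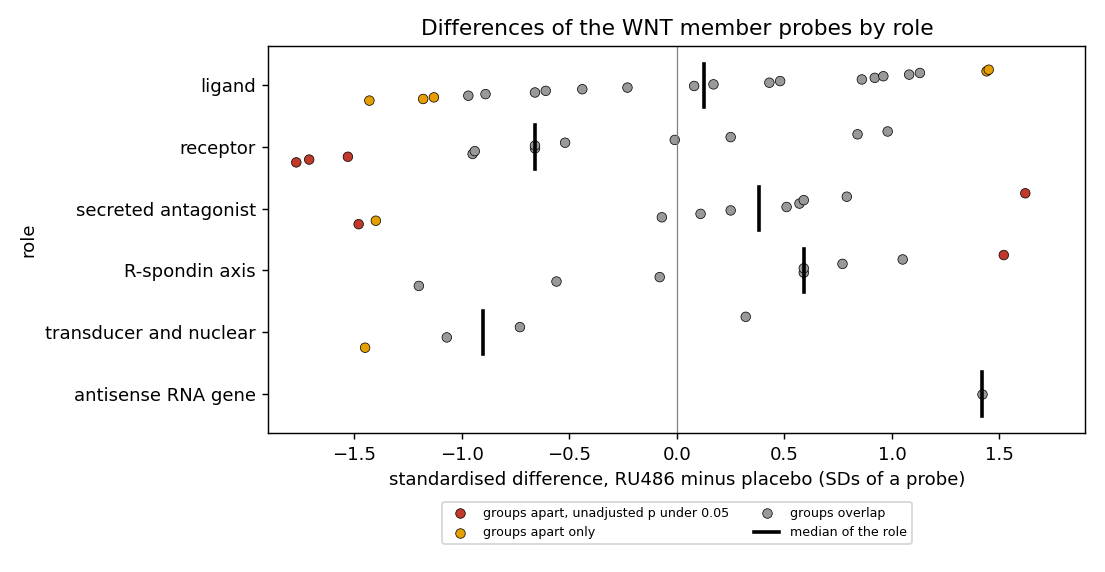
Standardised difference (x axis, RU486 less placebo, in units of the probe SD) of each member probe by role, 1 dot a probe, with the median of each role as a bar. Red dots have groups apart and an unadjusted p under 0.05, orange dots groups apart only, and grey dots overlapping groups. Receptors lie mostly left of 0 with Fzd1, Fzd6 and Lrp5 at the far left, and ligands spread from -1.43 to 1.45.

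Among the ligands 9 of 20 probes had a negative difference and 11 a positive one, with a median of 0.13. No ligand probe reached an unadjusted p of 0.05 in limma. Wnt6, a ligand of epithelia, scored -1.21, -0.411 and -0.523 on RU486 arrays, against 1.73, 0.25 and 0.164 on placebo arrays. The groups were apart at -1.43 (SE 0.567, limma adjusted p = 0.397), and placebo array 1 was the high one. Without that array the difference was -0.92.

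Wnt4 was measured by a pair of probes that share their highest array. Probe A_66_P139703 had -0.599, -0.422 and -0.675 on RU486 arrays, against 0.0954, -0.366 and 1.97 on placebo arrays. Its groups were just apart at -1.13 (SE 0.717, limma adjusted p = 0.595), and they overlapped after median centring. Without placebo array 3 the difference was -0.43. Probe A_51_P130475 had -0.659, -0.717 and -0.078 on RU486 arrays, against 0.907, -0.967 and 1.51 on placebo arrays. There the groups overlapped, since placebo array 2 was the lowest of all arrays, and the difference was -0.97 (SE 0.774, limma adjusted p = 0.683). Wnt8b was apart at -1.18, with 1.98 on placebo array 2 and scores from -0.641 to -0.099 on the other arrays, and stood at -0.48 without that array.

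Wnt3 and Wnt3a, closely related ligands that signal through beta-catenin, were apart in the higher direction. Wnt3 scored 0.985, -0.275 and 1.46 on RU486 arrays, against -0.329, -0.784 and -1.05 on placebo arrays, a difference of 1.44 (SE 0.558, limma adjusted p = 0.396). Wnt3a scored 0.951, -0.183 and 1.41 on RU486 arrays, against -0.193, -0.843 and -1.15 on placebo arrays, a difference of 1.45 (SE 0.552, limma adjusted p = 0.396). In both, RU486 array 2 lay just above placebo array 1, and after median centring or quantile normalization the groups overlapped. The 6 arrays stood in the same order for Wnt3, for Wnt3a and for 1 Lgr5 probe, and 2336 of all 37932 probes (6.16%) had that order too.

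Wnt5a, a ligand known mostly for signalling without beta-catenin, had -0.527, 1.86 and -0.623 on RU486 arrays, against -0.886, -0.0865 and 0.259 on placebo arrays, with a difference of 0.48 (SE 0.881, limma adjusted p = 0.834). Wnt7b had 1.15, 1.38 and -0.913 on RU486 arrays, against -0.459, -0.743 and -0.416 on placebo arrays. RU486 arrays 1 and 2 were above every placebo array and RU486 array 3 was below them all, so the groups overlapped at 1.08 (SE 0.737, limma adjusted p = 0.625). The remaining ligand genes overlapped as well: Wnt2 stood at -0.89, Wnt5b at -0.66, Wnt9b at -0.61, Wnt7a at -0.44 and Wnt1 at -0.23 on the lower side. Wnt9a stood at 0.08, Wnt16 at 0.17, Wnt2b at 0.43, Wnt8a at 0.86, Wnt10a at 0.92, Wnt11 at 0.96 and Wnt10b at 1.13 on the higher side. Wnt8a scored 2.04 on RU486 array 3 and between -0.457 and -0.338 on the other arrays, so its difference is that of 1 array.

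The R-spondin axis had 5 of 8 positive differences and a median of 0.59. Lgr5, a receptor for R-spondins that marks stem cells of several epithelia and of the ovarian surface, gave unlike results at its probes. Probe A_52_P30169 scored 1.11, -0.0734 and 1.24 on RU486 arrays, against -0.267, -0.758 and -1.25 on placebo arrays. The groups were apart at 1.52 (SE 0.506, limma adjusted p = 0.396, unadjusted p = 0.0398), and they overlapped after median centring (unadjusted p = 0.0673). Probe A_55_P2126192 scored 0.682, 0.384 and -0.184 on RU486 arrays, against -0.957, -1.27 and 1.35 on placebo arrays. Placebo array 3 was its highest array and the lowest of the other probe, so the pair disagree on that sample, and its difference was 0.59 (SE 0.864, limma adjusted p = 0.803).

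Znrf3 and Rnf43 code for the ubiquitin ligases that clear Frizzled and LRP6 from the membrane. Znrf3 scored 1.23, -0.49 and 0.823 on RU486 arrays, against -1.54, 0.287 and -0.312 on placebo arrays, with a difference of 1.05 (SE 0.749, limma adjusted p = 0.645). Rnf43 scored -0.705, -0.0645 and 1.93 on RU486 arrays, against -0.761, -0.439 and 0.0402 on placebo arrays, with a difference of 0.77 (SE 0.827, limma adjusted p = 0.744). Both overlapped between groups, and Rnf43 was high on RU486 array 3 alone. Rspo1 scored -0.557, 1.33 and -0.889 on RU486 arrays, against -0.33, -0.757 and 1.21 on placebo arrays, and so differed more within than between the groups (difference -0.08, SE 0.912, limma adjusted p = 0.975). Its relatives Rspo2 and Rspo3 stood at -1.20 and -0.56, and the receptor gene Lgr4 at 0.59, with overlapping groups.

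Of the genes that carry the signal, Axin2, a scaffold of the complex that breaks down beta-catenin and a widely used readout of the pathway, was apart and lower. It scored -1.76, -0.291 and -0.136 on RU486 arrays, against 0.428, 0.661 and 1.09 on placebo arrays. The difference was -1.45 (SE 0.551, limma adjusted p = 0.396, unadjusted p = 0.0577), and RU486 array 1 was well below the rest. Without that array it was -0.94, with the groups still apart. The unadjusted p ran from 0.0232 (quantile normalization) to 0.155 (without placebo array 3) over the alternatives.

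Lef1, the nuclear partner of beta-catenin, was lowest on RU486 array 1 at both probes. Probe A_51_P420400 had -1.56, 0.584 and -0.633 on RU486 arrays, against 0.0119, 1.32 and 0.274 on placebo arrays (difference -1.07, SE 0.739, limma adjusted p = 0.629). Probe A_55_P2076871 had -1.7, 0.273 and 0.334 on RU486 arrays, against -0.492, 1.26 and 0.322 on placebo arrays (difference -0.73, SE 0.837, limma adjusted p = 0.76). Both probes overlapped between groups, and placebo array 2 was the highest at each. Ctnnb1, the beta-catenin gene, had -0.545, 0.946 and 0.0859 on RU486 arrays, against -1.65, 0.13 and 1.03 on placebo arrays. Its transcript spread over both groups with a difference of 0.32 (SE 0.898, limma adjusted p = 0.891). Fzd10os stood at 1.42 (limma adjusted p = 0.401), where RU486 array 2 lay just below placebo array 1.

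A set of members peaked on RU486 array 2 alone. On that array 10 of the 55 probes (18.2%) had a score over 1.7, against 6.07% of all probes, a limit chosen after the scores were seen. They were the antagonist genes Sfrp5 (2.04), Frzb (1.95) and Sfrp2 (1.79), the receptor genes Fzd10 (2.01) and Fzd8 (1.83), and the ligand genes Wnt10a (1.93), Wnt5a (1.86), Wnt9a (1.83), Wnt10b (1.74) and Wnt2b (1.71). On the other 5 arrays none of the 10 exceeded 0.732, but the scaling leaves little room for another high score beside a score over 1.7. All 10 had positive differences, from 0.08 to 1.13, which a choice by a high RU486 score favours. Without RU486 array 2 these ran from -0.81 to 0.55, with 6 of them negative. These values thus follow largely from how the 10 were picked. Shares over 1.7 on the other arrays were from 0 to 9.09% of members and from 2.73% to 5.22% of all probes. In limma's array weights, which are lower for arrays that vary more, RU486 array 2 had the lowest value (0.355). Placebo array 2 had the highest (4.81).

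Markers of stroma were high on the same array. The 9 stromal fibroblast genes, all measured, had list means of -0.315, 1.03 and -0.812 on RU486 arrays 1 to 3, against -0.665, -0.287 and 1.05 on placebo arrays 1 to 3, and 0 of 9 probes were apart between groups. Granulosa markers had a list mean of 0.734 on RU486 array 2 and leukocyte markers 0.86, while epithelial markers had 0.261. The part of cell composition in these scores was not tested. Placebo array 3 had list means of 1.05 for stromal, 1.65 for smooth muscle, 1.39 for proliferation and 0.746 for epithelial markers. Granulosa markers had 0.114 there, and steroidogenic and luteal markers -0.284. Its median over all probes, 0.212, was the highest of any array. That array held the highest score of 16 members (29.1%, against 22.3% of all probes), among them Sfrp1, Dkk3, Rspo3 and Wnt16. RU486 array 2 held that of 15 (27.3%, against 20.4%).

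**Figure D4:**
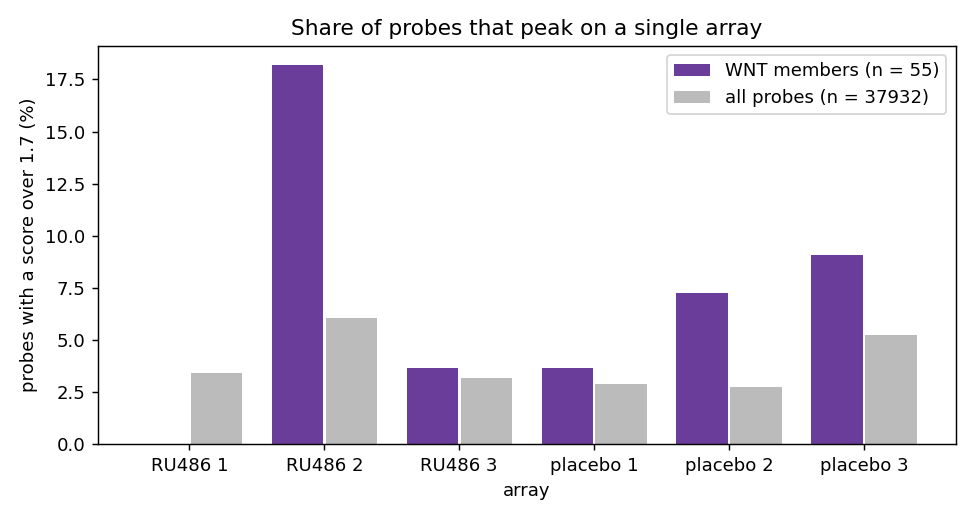
Share of probes with a score over 1.7 on each array (y axis, %), for the 55 members (purple) and all 37932 probes (grey), with RU486 arrays left of placebo arrays. RU486 array 2 has 18.2% of members and 6.07% of all probes, and RU486 array 1 has no member over 1.7.

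The wider pathway was read from 5 lists of genes that are not members, 81 genes with 98 probes. None passed the adjusted test (0 of 98, smallest adjusted p = 0.205). At an unadjusted p of 0.05 there were 10 lower probes (10.2%) and 3 higher (3.06%), against 6.39% and 5.32% of all probes, and 21 of 98 (21.4%) had groups apart, against 22.1%. The median difference was -0.10.

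Porcn, the acyltransferase that attaches the lipid to every WNT ligand, had the smallest p of this wider set. It scored -1.03, -0.558 and -1.1 on RU486 arrays, against 0.905, 0.924 and 0.861 on placebo arrays, at -1.79 (SE 0.172, limma adjusted p = 0.205). Placebo arrays were almost level and every RU486 array lay well below them. At an unadjusted p of 0.05 the list of 20 secretion and extracellular probes had 2 in each direction (10.0% each way, against 6.39% and 5.32% of all probes). The lower ones were Porcn and the membrane inhibitor gene Apcdd1 at -1.48. The higher ones were the glypican gene Gpc3 at 1.53, with -0.23 at its other probe, and the R-spondin gene Rspo4 at 1.50. Both higher probes had the array order of Wnt3, which 6.16% of all probes share. RU486 array 2 lay next to placebo array 1 (-0.0898 against -0.353 in Gpc3, -0.139 against -0.334 in Rspo4). The medians of these arrays over all probes were -0.0875 and -0.384.

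Ror1, a receptor for WNT5A, scored -0.5, -1.08 and -1.04 on RU486 arrays, against 0.74, 0.636 and 1.24 on placebo arrays (-1.75, SE 0.265, limma adjusted p = 0.292). At its other probe the difference was -1.26 and the groups overlapped. The list of alternative receptors and planar polarity had 19 probes. At an unadjusted p of 0.05, 2 of them were lower (10.5%, against 6.39% of all probes) and 0 were higher. The lower ones were the first Ror1 probe and that of the formin gene Daam2 at -1.60. Of 29 cytoplasmic probes 2 were lower (6.9%, against 6.39%), Amer1, which binds APC at the membrane (-1.53), and the Dishevelled-binding gene Ccdc88c (-1.48), and 0 were higher. Of 19 nuclear probes 2 were lower (10.5%, against 6.39%) and 1 higher (5.26%, against 5.32%). The lower ones were Ctnnbip1, which keeps beta-catenin from TCF proteins (-1.67), and the corepressor gene Tle1 (-1.55, with -1.43 at its other probe), while the related corepressor gene Tle3 was higher (1.59).

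Genes known as beta-catenin targets in several tissues had 3 of 14 lower probes (21.4%, against 6.39% of all probes) and 0 higher (against 5.32%) by the same limit: Ccnd1 (cyclin D1, -1.75), Fst (follistatin, -1.70) and Apcdd1. The Fst probe is the one counted in the granulosa list, and the Apcdd1 probe the one counted in the secretion list. Ccnd1 is also a cell cycle gene and Fst a granulosa product, and the part of those sources was not tested. The feedback genes Notum and Nkd1 stood at -1.27 and -0.07 with overlapping groups, and the list had a median of -0.28.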

How the data were processed

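Per the labels, tumour RNA was put on 3 RU486 and 3 placebo arrays, each with 1 colour (Cy3). Sample titles gave the group and number of each array. The deposited table holds scores: from the values, the authors' processing left every probe with a mean of 0 and an SD of 1 over the 6 arrays (largest score 2.04). Partek is named, per the submitters' processing notes. The background correction, the normalization, any filter, the log or linear scale and the direction were not given in the sources used here. Higher scores were read as brighter. No pair of arrays held identical values (0 pairs). The platform annotation named 24903 probes, and the Entrez IDs of all 55 member probes matched RefSeq GRCm38.p6 with 0 symbols changed.

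All 6 arrays entered 1 linear model per probe (limma 3.58.1, R 4.3.3), tested by the ordinary statistic (4 residual degrees of freedom), which is the same before and after a probe is scaled, as was checked on simulated data. P-values are two-sided, with Benjamini-Hochberg adjustment over 37932 probes. Probes of 1 gene were tested separately. Members and lists were chosen with earlier results of these data known. Members with groups apart and an unadjusted p under 0.05 and a fixed panel of genes are given array by array; Wnt3, Wnt3a, Wnt8b, Wnt8a and Fzd4, and the genes peaking on RU486 array 2, had array scores added after their values were seen, as had the array order and the limit of 1.7. Alternatives were eBayes, median centring, quantile normalization, array weights, gene means, named probes only, the replicate block and leaving out each array. Depth has no meaning here, and the number of arrays limits the precision.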

Additional observations from a re-analysis of the deposited data

How the results depend on the processing

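No member passed an adjusted p of 0.05 in any of the 13 alternatives, in which the smallest limma adjusted p of a member ran from 0.0849 (array weights) to 0.606 (replicate block). The counts at an unadjusted p of 0.05, 4 lower and 2 higher, became 8 and 5 with array weights (14.5% and 9.09%, against 11.6% and 13.6% of all probes) and 2 and 0 with the replicate block (3.64% and 0%, against 4.67% and 1.66%). The higher count was 1 (1.82%) with median centring and with quantile normalization, against 2.67% and 2.46% of all probes. Separated higher probes numbered 1 (1.82%) under either of these scalings and 4 without them, while the share of all probes was 5.92% and 5.58%, and 12.0% without them. Leaving out 1 array gave 3 to 7 lower and 0 to 5 higher probes at an unadjusted p of 0.05, 10 to 13 separated lower and 4 to 9 separated higher probes, and a median difference from -0.32 (without RU486 array 2) to 0.50 (without placebo array 3); without placebo array 1 it was -0.30. Over all probes the same settings gave 4.14% to 8.24% lower, 1.45% to 11.6% higher (11.6% without RU486 array 2), 11.8% to 20.9% separated lower, 15.4% to 22.7% separated higher, and a median from -0.26 to 0.24. The 7 lower came without placebo array 2. The 5 higher came without RU486 array 2. Without RU486 array 1 or RU486 array 3 there was 1 higher, and without placebo array 1 or placebo array 2 there were 0. Separated higher probes were 9 without RU486 array 2 or placebo array 3 and 7 without RU486 array 3, and with fewer arrays groups are apart more easily.

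Of 24 named probes 18 kept their sign in every alternative at probe level. Rspo1 turned to 0.04 with median centring and ran from -0.76 to 0.50 when 1 array was left out. With array weights Wnt4 probe A_51_P130475 turned to 0.01, Wnt5a to -0.15 and Ctnnb1 to -0.23. Leaving out 1 array gave from -0.34 to 0.91 for Wnt5a, from -0.24 to 1.12 for Frzb, from -0.42 to 0.92 for Ctnnb1 and from -0.03 to 1.29 for Wif1. The cause was not tested. The numbers of the samples share no stated origin. Deviations of same-numbered arrays correlated at 0.266, 0.077 and -0.239 over all probes, so the numbers were not taken as pairs.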

Other observations

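Some Wnt genes lie next to each other in the mouse genome, and the RefSeq table lists 4 such neighbouring pairs among the protein-coding members. Wnt6 stood at -1.43 and its neighbour Wnt10a at 0.92. Wnt3 stood at 1.44 and Wnt9b at -0.61. Wnt3a stood at 1.45 and Wnt9a at 0.08. Wnt10b stood at 1.13 and Wnt1 at -0.23. In 3 of the 4 pairs the neighbours differed in sign, and none of the 8 genes passed an adjusted p of 0.05 in limma. Within each pair 1 gene at most had groups apart. These were Wnt6, Wnt3 and Wnt3a, or 3 of the 8 genes, against 22.1% of all probes. Wnt3 and Wnt3a overlapped after median centring or quantile normalization.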
